A study of Mus musculus with 6 samples.

Results

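The AMPA and kainate receptors of the hippocampus are built from the products of 9 genes, Gria1 to Gria4 and Grik1 to Grik5, and their transcripts were measured in wild-type (WT) and Phf8 knockout (KO) hippocampus. Every probe set to which the array's gene table gives a single symbol among these 9 was taken as a member, which gave 9 of 18193 genes and 18 of 45037 probe sets, 10 for AMPA and 8 for kainate receptor subunits. Total RNA from 3 WT and 3 Phf8 KO hippocampus samples, all of C57BL/6 background and 10 weeks of age by their labels, had been hybridised to Affymetrix mouse arrays, 1 array for each sample. The study compared the groups to find the molecular basis of weakened long-term potentiation and memory in the KO mice. The KO allele lacks the exons of the catalytic JmjC domain of PHF8, a histone demethylase encoded on the X chromosome. It was made in cells of another mouse strain, recombined with EIIa-Cre, which acts in the early embryo, and backcrossed to C57BL/6J, so KO males lack the domain in all tissues and not in neurons alone. WT samples came from littermates that carry the intact gene, and the methods leave it unclear whether 1 mouse or the tissue of several went onto each array.

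AMPA receptors are tetramers of GluA1 to GluA4 that open within milliseconds of glutamate binding and carry most fast excitatory current at hippocampal synapses. Their number at the synapse changes during long-term potentiation, and the GluA2 subunit, whose transcript is edited in the pore region, keeps calcium out of the channel. Kainate receptors are tetramers as well. GluK1 to GluK3 can form channels alone, while GluK4 and GluK5, the subunits of high affinity for kainate, need one of the first group, and receptors of this kind shape transmission at mossy fibre synapses of CA3 and on interneurons.

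The values are log2 MAS5 signals, in which a single number summarises the probe pairs of a probe set. A probe set was treated as measured when it lay above the 40th percentile of its array, a log2 signal of 5.73 to 6.05, on at least 3 of the 6 arrays. Of the 18 member probe sets, 17 were measured, and all 9 genes kept at least 1. Probe sets differ in how well they hybridise, so a brighter signal of one subunit than of another is no measure of their amounts, and each probe set is compared only with itself across arrays.

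The targeted gene was low in every KO sample, with log2 signals of 9.66 to 9.90 on the WT arrays and 7.99 to 8.55 on the KO arrays for the bright Phf8 probe set. Its difference of -1.51 had an adjusted p of 0.124 from limma over probe sets and 0.0527 over genes. The targeted gene itself thus missed the 0.05 threshold used below. The other Phf8 probe sets, not measured by the filter, averaged 5.80 and 3.45 in WT and 5.74 and 3.77 in KO. Field markers of CA1, CA3 and dentate gyrus were measured for 5 of 6, 6 of 6 and 7 of 7 genes. KO replicate 3 stood apart, with correlations across genes of 0.925 to 0.940 with the other arrays, against 0.976 to 0.987 among the other 5. All 9 measured thalamus markers of 10 listed (Tnnt1 was not measured) were higher on average in KO. Their summed linear signal was 3849 to 4598 on the WT arrays, 5914 and 5652 in KO replicates 1 and 2, and 30774 in KO replicate 3. Their median deviation from the WT mean was -0.14, 0.02 and 0.14 in WT and 0.29, 0.24 and 2.73 in KO. Zic1 lay 1.19 and 0.78 above its WT mean in KO replicates 1 and 2. Lef1, Rora and Rgs16 lay below theirs in KO replicate 1, and Ramp3 did in KO replicate 2. Pan-neuronal markers summed to 62244 to 66868 in WT and 57469 to 60192 in KO, and 3 measured erythrocyte markers to 1747 to 1995 in WT and 72.3 to 158 in KO. The part of these markers in the differences below was not tested. Differences of the measured members and of the named partner genes are also given without KO replicate 3. In a tissue sample, fewer cells of a type and less RNA per cell cannot be told apart.

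No AMPA or kainate receptor subunit passed an adjusted p of 0.05 between KO and WT hippocampus. In limma, over 27408 measured probe sets, 0 of 17 members passed (smallest adjusted p = 0.782), where 0.0219% of all probe sets did. At an unadjusted p under 0.05 there were 3 of 17, against 6.18% of all probe sets, and these were the brightest probe sets of Gria4, Grik3 and Gria1. A fold of at least 1.5, the criterion of the study's own comparison, was reached by 1 of 17, Grik3, against 7.66% of all. The groups did not overlap for 1 of 17, Gria4, against 15.2% of all. The differences ran from -0.53 to 0.64 on the log2 scale, 7 higher and 10 lower in KO, with a median of -0.03 beside -0.01 over all measured probe sets. With 1 probe set for each gene, the brightest, 0 of 9 subunit genes passed over 12903 genes, where 0.062% of genes did, and 3 of 9 had an unadjusted p under 0.05, against 7.48% of genes. Without KO replicate 3, 0 of 17 passed again (smallest adjusted p = 0.275), where 0.234% of all probe sets did, 3 of 17 had an unadjusted p under 0.05, against 12.6%, and 0 of 17 reached the 1.5-fold difference, against 6.86%. The groups then did not overlap for the brightest probe sets of Gria2, Gria3 and Gria4, 3 of 17 against 30.1% of all.

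**Figure D1:**
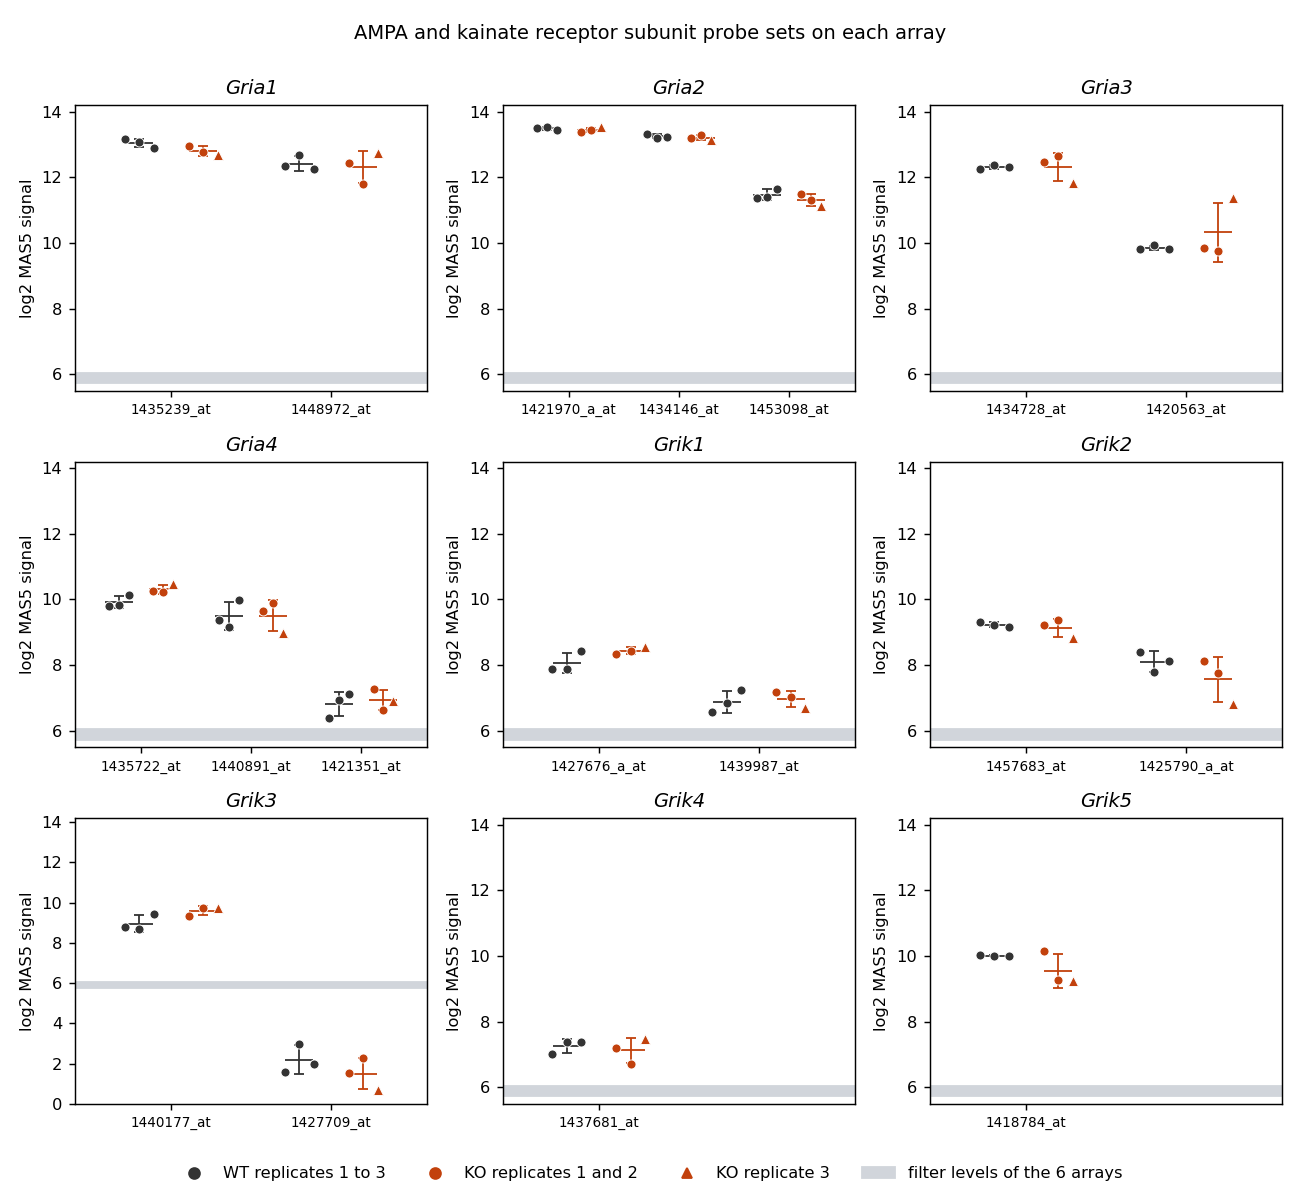
Log2 MAS5 signal (y axis) of the 18 member probe sets (x axis) on each array, with 1 panel for each gene, the group mean as a horizontal line and the SD as a bar. WT arrays are dark, KO arrays orange and KO replicate 3 a triangle, and grey shading covers the filter levels, 5.73 to 6.05. Only the dim Grik3 probe set lies below the band, and the y axis of that panel starts at 0.

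Gria1 encodes GluA1, the subunit whose phosphorylation and delivery to the synapse are tied to long-term potentiation. Its brightest probe set (1435239_at) had log2 signals of 13.15, 13.07 and 12.90 in WT replicates 1 to 3 and 12.95, 12.77 and 12.67 in KO replicates 1 to 3. KO replicates 2 and 3 lay below every WT array, and KO replicate 1 lay just above the lowest WT array. WT averaged 13.04 ± 0.13 (SD, n = 3) and KO 12.79 ± 0.14 (SD, n = 3), which differ by -0.25 with a 95% confidence interval of -0.49 to -0.01 (unadjusted p = 0.0441, adjusted p = 0.782 from limma). Without KO replicate 3 the difference was -0.18. The other Gria1 probe set (1448972_at) had 12.33, 12.66 and 12.25 in WT and 12.43, 11.79 and 12.73 in KO. There KO replicate 2 was lowest and KO replicate 3 highest of all 6 arrays, so the 2 probe sets order the KO arrays differently, and its difference of -0.10 became -0.31 without KO replicate 3. All 7 markers of dentate granule cells were lower on average in KO too (median -0.35, or -0.26 without KO replicate 3). Their summed signal, in which bright genes weigh most, was 9937 to 12532 in WT and 7265 to 9702 in KO. By the median deviation of these markers from their WT means the groups overlap. It was 0.195, 0.090 and -0.284 in WT and -0.185, -0.186 and -0.502 in KO. Of 5 measured markers of CA1 pyramidal cells 2 were higher and 3 lower, with a summed signal of 8738 to 9319 in WT, 9640 and 10390 in KO replicates 1 and 2 and 6210 in KO replicate 3. The part of either group in the Gria1 signal was not tested.

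Gria2, the gene of the subunit that blocks calcium entry, had, on its 2 brighter probe sets, the narrowest confidence intervals among the 17. The brightest probe set (1421970_a_at) had 13.50, 13.52 and 13.44 in WT and 13.37, 13.43 and 13.51 in KO. KO replicates 1 and 2 lay just below the WT arrays and KO replicate 3 among them. The difference was -0.05 (95% confidence interval -0.20 to 0.10), which covers folds from 0.871 to 1.07, and -0.09 without KO replicate 3. The next probe set (1434146_at) had 13.31, 13.19 and 13.22 in WT and 13.19, 13.29 and 13.14 in KO, a difference of -0.03 (95% confidence interval -0.20 to 0.13), or -0.00087 without KO replicate 3. The dimmest (1453098_at) ran from 11.36 to 11.66 in WT and from 11.11 to 11.50 in KO, with KO replicate 3 lowest and a difference of -0.17 (95% confidence interval -0.49 to 0.15), or -0.07 without that array. The intervals of all 3 Gria2 probe sets exclude a 1.5-fold difference in either direction.

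Gria3, an X-linked gene like Phf8, gave opposite readings from its 2 probe sets in KO replicate 3. The brightest (1434728_at) had 12.24, 12.37 and 12.30 in WT and 12.46, 12.66 and 11.83 in KO, with KO replicates 1 and 2 above every WT array and KO replicate 3 below every one. The other (1420563_at) had 9.81, 9.93 and 9.80 in WT and 9.86, 9.74 and 11.35 in KO. On that probe set KO replicate 3 lay 1.51 above the WT mean, or 2.84 times it on the linear scale, while KO replicates 1 and 2 stayed within 0.11 of it. The mean differences were 0.02 (95% confidence interval -0.45 to 0.48) and 0.47 (95% confidence interval -0.47 to 1.41). Without KO replicate 3 they became 0.26 (unadjusted p = 0.0108, adjusted p = 0.275 from limma) and -0.05. Which transcripts or ends of Gria3 the 2 probe sets read was not analysed here.

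Gria4, the AMPA subunit gene known for its part in fast-spiking interneurons and in thalamus, was higher in all 3 KO samples on its brightest probe set (1435722_at), short of the threshold. That probe set had 9.81, 9.82 and 10.13 in WT and 10.26, 10.22 and 10.47 in KO, so every KO array lay above every WT array. WT averaged 9.92 ± 0.18 (SD, n = 3) and KO 10.32 ± 0.14 (SD, n = 3), a difference of 0.40 (95% confidence interval 0.06 to 0.74, unadjusted p = 0.0270, adjusted p = 0.782 from limma). Without KO replicate 3 the difference was 0.32 (adjusted p = 0.346 from limma). The other Gria4 probe sets did not share it. One (1440891_at) had 9.36, 9.16 and 9.99 in WT and 9.65, 9.88 and 8.98 in KO, a difference of -0.00 that became 0.26 without KO replicate 3. The dimmest (1421351_at) ran from 6.40 to 7.11 in WT and from 6.63 to 7.26 in KO, a difference of 0.12, or 0.13 without KO replicate 3. Of 8 markers of GABAergic interneurons 4 were higher and 4 lower in KO, with a median of 0.01. Their summed signal was 24819 to 28146 in WT, 26797 and 26849 in KO replicates 1 and 2 and 31146 in KO replicate 3. In KO replicate 3 Gad1, Gad2 and Slc32a1 lay above their WT means and Pvalb, Sst, Vip, Npy and Lhx6 below. The median deviation from the WT mean was -0.26 on that array, so the higher sum is not shared by most of these markers. Thalamus markers are described above, and the part of either group in the Gria4 signal was not tested.

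**Figure D2:**
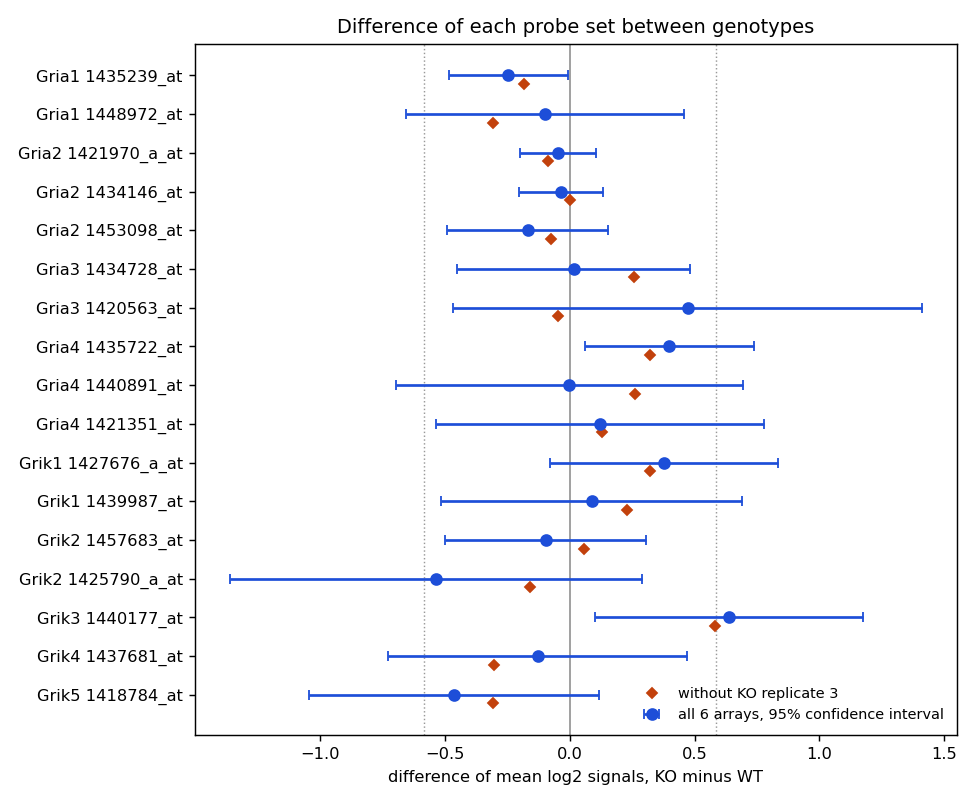
Difference of mean log2 signals, KO minus WT (x axis), for the 17 measured member probe sets (y axis), with 95% confidence intervals from limma, and the same difference without KO replicate 3 as a diamond. Dotted lines mark a 1.5-fold difference. Only the intervals of Gria1 1435239_at, Gria4 1435722_at and Grik3 1440177_at leave out 0, and none of the 3 passed after adjustment.

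Of the kainate subunits that form channels alone, Grik1 and Grik3 were higher on average in KO and Grik2 lower, none past the threshold. Grik3, the gene of GluK3, had the largest difference of all measured member probe sets. Its measured probe set (1440177_at) had 8.79, 8.67 and 9.42 in WT and 9.35, 9.73 and 9.71 in KO. WT replicate 3 lay above KO replicate 1, so the groups overlap. WT averaged 8.96 ± 0.40 (SD, n = 3) and KO 9.60 ± 0.21 (SD, n = 3), a difference of 0.64 or 1.55-fold (95% confidence interval 0.10 to 1.17, unadjusted p = 0.0259, adjusted p = 0.782 from limma). Without KO replicate 3 it was 0.58 (adjusted p = 0.345 from limma), just under 1.5-fold. Leaving out each array in turn gave 0.49 to 0.87. The other Grik3 probe set (1427709_at) was the member below the filter, with 1.60, 2.98 and 1.99 in WT and 1.52, 2.25 and 0.70 in KO, signals at background where a fold means little.

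Grik1, the gene of GluK1, which is known from hippocampal interneurons, had 7.88, 7.89 and 8.42 in WT and 8.34, 8.43 and 8.55 in KO on its brightest probe set (1427676_a_at). As for Grik3 and Gria4, WT replicate 3 was the highest WT array, here above KO replicate 1. The difference was 0.38 (95% confidence interval -0.08 to 0.83, adjusted p = 0.782 from limma), or 0.32 without KO replicate 3. The dimmer Grik1 probe set (1439987_at) ran from 6.57 to 7.23 in WT and from 6.69 to 7.18 in KO, wholly within the WT range, with a difference of 0.09, or 0.23 without KO replicate 3.

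Grik2 encodes GluK2, the main pore-forming kainate subunit of pyramidal and granule cells. Its brightest probe set (1457683_at) had 9.31, 9.23 and 9.17 in WT and 9.22, 9.36 and 8.83 in KO, with KO replicate 3 below and KO replicate 2 above all WT arrays. The difference of -0.10 (95% confidence interval -0.50 to 0.31) was 0.06 without that array. The other probe set (1425790_a_at) had 8.41, 7.78 and 8.12 in WT and 8.13, 7.76 and 6.81 in KO. KO replicate 3 lay 1.29 below the WT mean there, and the difference of -0.53 (95% confidence interval -1.36 to 0.29) was -0.16 without it. Both Grik2 probe sets were thus lowest in the sample with high thalamus markers. The summed markers of hippocampal fields were lowest there too, at 6210 for CA1, 7265 for the dentate gyrus and 5299 for CA3, against 6135 to 6988 in WT and 6904 and 6965 in the other KO samples for CA3. The part of these markers was not tested.

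The 2 subunits of high affinity for kainate each have 1 probe set. Grik5, the gene of GluK5, had 10.02, 10.01 and 10.01 in WT and 10.15, 9.27 and 9.24 in KO. The WT arrays were nearly alike (SD 0.00299), KO replicate 1 lay above them, and KO replicates 2 and 3 lay 0.75 and 0.78 below the WT mean, 0.596 and 0.584 times it on the linear scale. The difference was -0.46 (95% confidence interval -1.04 to 0.12, adjusted p = 0.782 from limma), or -0.31 without KO replicate 3 and -0.76 without KO replicate 1. Grik4, the gene of GluK4, which is known for its high level in CA3 pyramidal cells, had 7.01, 7.38 and 7.38 in WT and 7.20, 6.71 and 7.47 in KO. KO replicate 2 was lowest and KO replicate 3 highest, and the difference was -0.13 (95% confidence interval -0.73 to 0.47). It was -0.30 without KO replicate 3 and turned to 0.082 without KO replicate 2. Of 6 markers of CA3 pyramidal cells 4 were lower on average in KO (median -0.15, or 0.12 without KO replicate 3).

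The spread of the members over the KO samples was compared with that of all measured probe sets. KO replicates 1, 2 and 3 lay outside the WT range for 6, 13 and 14 of 17 probe sets, against 58.9%, 68.7% and 81.4% of all measured probe sets. The median distance from the WT mean was 0.11, 0.30 and 0.40 in the 3 KO samples, and 0.15, 0.23 and 0.40 over all measured probe sets. The SD over the KO arrays was larger than that over the WT arrays for 12 of 17, against 80.9% of all. Median SDs of the members were 0.18 in WT and 0.27 in KO, beside 0.13 and 0.31 over all measured probe sets. KO replicate 3 was the KO array farthest from the WT mean for 11 of 17, against 59.2% of all.

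Subunit balance was read as the log2 signal of one subunit minus that of another on the same array, each from its brightest probe set, with 5 pairs and no test. Only the change of such a difference between genotypes has a meaning here, and a change shows that the 2 signals moved unequally. Gria1 minus Gria2 was -0.35, -0.45 and -0.53 in WT and -0.42, -0.66 and -0.85 in KO, with KO replicate 1 inside the WT range and the other 2 KO arrays below it. The change was -0.20, or -0.10 without KO replicate 3. Gria4 minus Gria2 was -3.69, -3.70 and -3.31 in WT and -3.11, -3.21 and -3.04 in KO, a change of 0.45 and the only pair of the 5 without overlap of the groups. The Gria4 probe set alone differed by 0.40, also without overlap, and that of Gria2 by -0.05, so this pair largely repeats Gria4. The change of the pair was 0.41 without KO replicate 3, and 0.03 with the second brightest probe sets. Gria3 minus Gria2 changed by 0.06, with KO replicates 1 and 2 above every WT array and KO replicate 3 below every one, and by 0.34 without KO replicate 3. Grik2 minus Grik5 was -0.71, -0.78 and -0.85 in WT and -0.93, 0.09 and -0.41 in KO, a change of 0.37, or 0.36 without KO replicate 3 and 0.11 without KO replicate 2. With the second brightest Grik2 probe set it turned to -0.072. Grik4 minus Grik5 changed by 0.33, or 0.01 without KO replicate 3, which at -1.76 lay above all other arrays (-3.01 to -2.56). KO replicate 1 lay below the WT range in the first kainate pair and within it in the second.

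**Figure D3:**
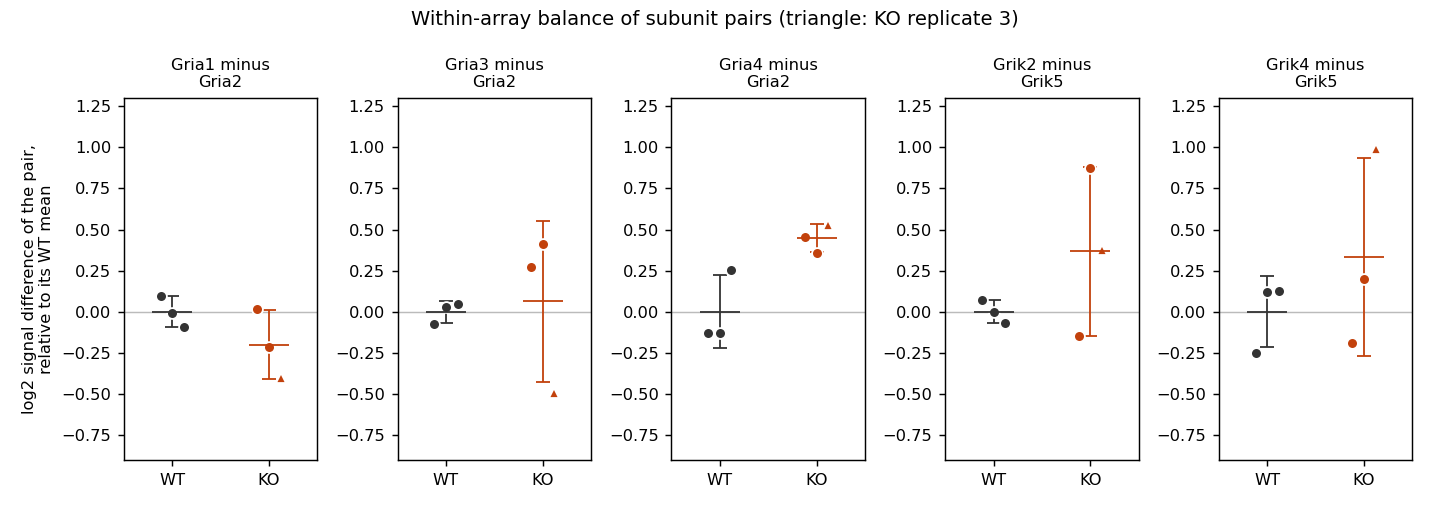
Log2 signal of one subunit minus another on the same array, relative to the WT mean of that difference (y axis), for 5 subunit pairs, with group means and SDs. Gria4 minus Gria2 is the pair in which all 3 KO arrays lie above all 3 WT arrays, and KO replicate 3 (triangle) lies at the edge of the KO group in every pair but Grik2 minus Grik5.

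Genes of the proteins that assemble, anchor and edit these receptors were compared in the same way. Of 41 such genes 40 were measured, 19 higher and 21 lower on average in KO. In limma over 12903 genes 0 of 40 passed an adjusted p of 0.05 (smallest adjusted p = 0.563), where 0.062% of all genes did. Without KO replicate 3 none passed either, where 0.411% of genes did. In the fit of all 6 arrays 5 of 40 had an unadjusted p under 0.05, against 7.48% of all genes. The groups did not overlap for 10 of 40, against 16.7% of all genes, and 3 of 40 reached a 1.5-fold difference, against 6.18%. The median difference was -0.0046, beside 0.01 over all genes.

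AMPA receptor auxiliary subunits, the TARP, cornichon, Shisa and related proteins that set gating and surface number, had 8 of 14 genes higher and 6 lower, 0 passed and a median of 0.07 (-0.07 without KO replicate 3). Cacng4, a TARP gene, had 7.10, 7.38 and 7.74 in WT and 8.05, 7.91 and 8.21 in KO. All 3 KO arrays lay above the WT arrays on its brightest probe set, with a mean 0.65 higher (95% confidence interval 0.17 to 1.13, adjusted p = 0.586 from limma), or 0.57 without KO replicate 3. The mean of its 2 measured probe sets differed by only 0.35 (adjusted p = 0.889 from limma). Cacng5, another TARP gene, had 8.31, 8.38 and 7.91 in WT and 8.76, 8.67 and 10.86 in KO. It was highest by far in KO replicate 3, and its difference of 1.24 was 0.52 without that array. Shisa6, which keeps AMPA receptors at the synapse, had 11.61, 11.58 and 11.54 in WT and 11.31, 11.47 and 10.45 in KO, a difference of -0.50 that was -0.19 without KO replicate 3.

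Assembly factors of the endoplasmic reticulum had 1 of 5 genes higher and 4 lower, 0 passed and a median of -0.15 (-0.02 without KO replicate 3). Sacm1l, a phosphoinositide phosphatase gene, had 12.07, 12.05 and 11.74 in WT and 11.59, 11.67 and 11.73 in KO, the highest KO array just below the lowest WT array, with a difference of -0.28 (adjusted p = 0.659 from limma), or -0.32 without KO replicate 3. Frrs1l, which is needed for AMPA receptor assembly, differed by -0.25 and Porcn by -0.15, and both values rest on KO replicate 3, without which they were -0.02 and 0.14.

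Among intracellular partners, which anchor, recycle or remove receptors, 6 of 10 genes were higher and 4 lower, 0 passed and the median was 0.13 (0.08 without KO replicate 3). Arc, an activity-induced gene whose product drives AMPA receptor endocytosis, had 10.78, 10.76 and 10.74 in WT and 10.63, 9.76 and 10.22 in KO. It lay below WT in every KO sample, with a difference of -0.56 (adjusted p = 0.638 from limma) and of -0.57 without KO replicate 3. Without KO replicate 2, its lowest array, the difference was -0.34. Klhl17, the gene of the GluK2-binding protein actinfilin, had 9.51, 9.51 and 9.39 in WT and 9.75, 9.72 and 10.09 in KO, a difference of 0.38 (adjusted p = 0.638 from limma), or 0.26 without KO replicate 3. Grip1, a PDZ scaffold of GluA2 and GluA3, had 8.99, 8.92 and 9.06 in WT and 9.10, 9.68 and 9.23 in KO, a difference of 0.35. It was 0.40 without KO replicate 3 and 0.17 without KO replicate 2.

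Of the extracellular partners, 1 of 6 measured genes was higher and 5 lower, 0 passed and the median was -0.34 (-0.13 without KO replicate 3), and Nptxr was not measured. Nptx1, a neuronal pentraxin that clusters AMPA receptors, had 13.58, 13.54 and 13.50 in WT and 13.26, 13.34 and 12.35 in KO. Every KO array was below WT, and the difference of -0.56 was -0.24 without KO replicate 3 (adjusted p = 0.123 from limma). Olfm3, which binds AMPA receptors, was the member of the list that was higher, with 9.49, 9.56 and 9.71 in WT and 10.00, 9.97 and 10.38 in KO, a difference of 0.53 (adjusted p = 0.563 from limma) and of 0.39 without KO replicate 3. C1ql3, a synaptic organizer secreted by mossy fibres, had 12.93, 12.91 and 12.86 in WT and 12.67, 12.87 and 11.71 in KO, a difference of -0.48 that was -0.13 without KO replicate 3. C1ql2 of this list is a marker of dentate granule cells as well.

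The kainate receptor auxiliary genes Neto1 and Neto2 differed by -0.19 and -0.09, and by 0.18 and 0.16 without KO replicate 3, in which they lay 0.93 and 0.58 below the WT mean. The RNA editing enzyme genes Adar, Adarb1 and Adarb2 differed by 0.0037, 0.10 and 0.21, and by -0.12, -0.31 and 0.22 without KO replicate 3. Adarb1 encodes the enzyme that edits the GluA2 transcript. It had 9.02, 8.86 and 8.94 in WT and 8.66, 8.59 and 9.87 in KO, so KO replicates 1 and 2 lay below WT and KO replicate 3 above (adjusted p = 0.295 from limma without that array). Editing of the transcripts themselves was not measured.

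**Figure D4:**
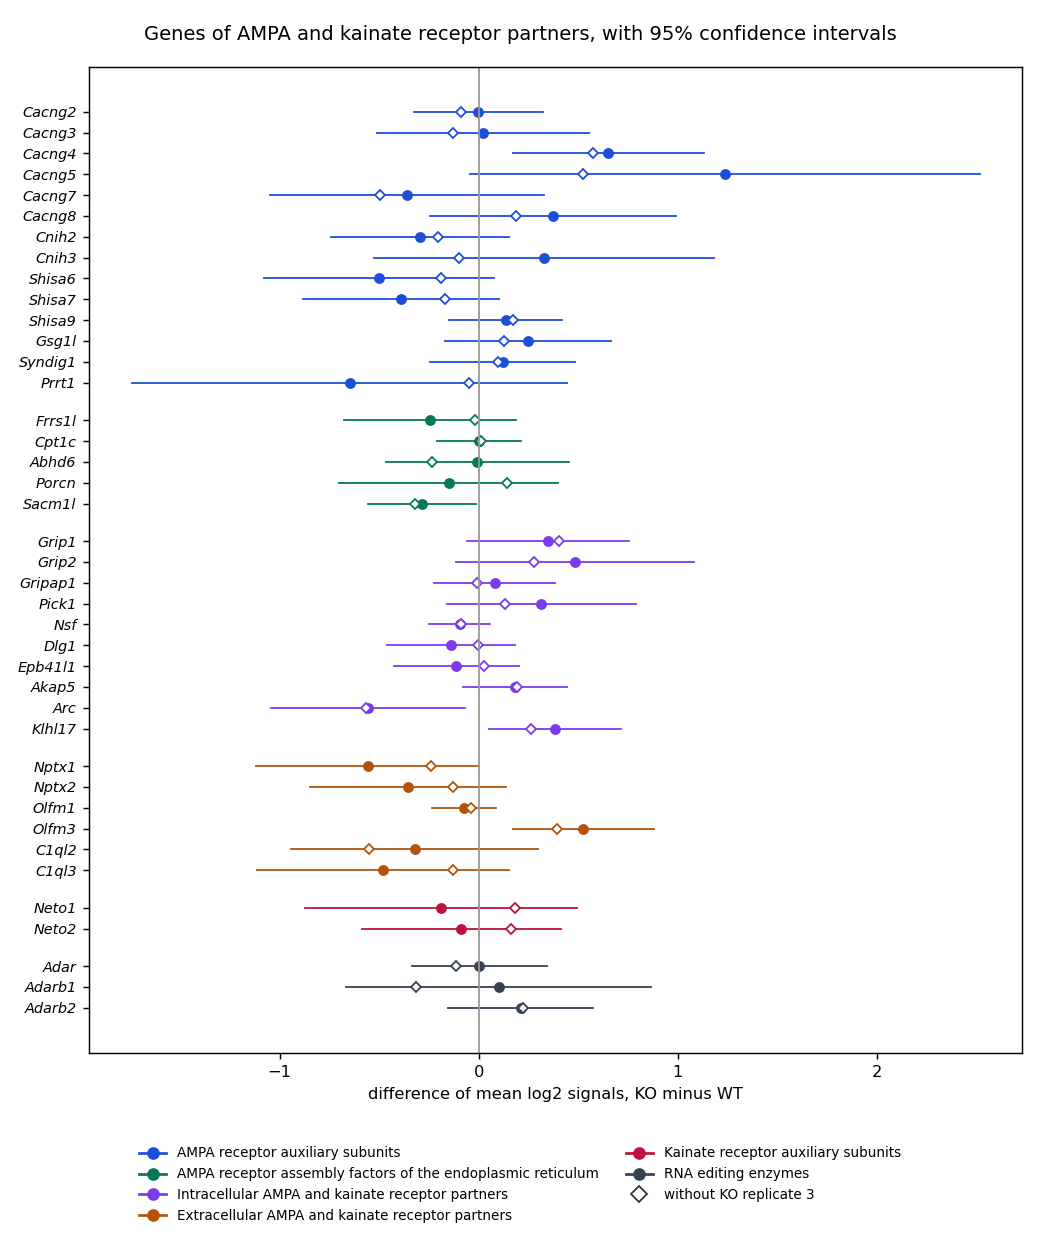
Difference of mean log2 signals, KO minus WT (x axis), for the 40 measured partner genes (y axis), coloured by list, with 95% confidence intervals from limma, and the difference without KO replicate 3 as an open diamond. The intervals of Cacng4, Olfm3, Klhl17, Arc and Sacm1l leave out 0, and no gene passed after adjustment.

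As a description, the gene outside the families most like each subunit across the 6 arrays, by Pearson correlation of log2 signals, was Ksr1 for Gria1 (0.995), Dnaaf2 for Gria2 (0.974), Hif1a for Gria3 (0.998) and Wdr34 for Gria4 (0.998). For the kainate subunits it was Nodal for Grik1 (0.991), Hspa9 for Grik2 (0.998), Cux2 for Grik3 (0.990), Fcna for Grik4 (0.983) and Pias4 for Grik5 (0.996). Over the 5 arrays without KO replicate 3 all 9 choices were different genes, Idnk, Cep152, Ndufb2, Map3k9, Fads3, Sf3a3, Casp1, Lrrc45 and Fads6 in the order Gria1 to Gria4 and Grik1 to Grik5. Between 43 and 1407 genes correlated above 0.9 with a given subunit over the 6 arrays, and between 257 and 795 over the 5. All of these correlations share the same few arrays.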

How the data were processed

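RNA of 3 WT and 3 KO hippocampus samples had been hybridised to 6 Affymetrix arrays. The deposited values are log2 MAS5 signals, which the authors scaled to a common level: the 2% trimmed mean of the linear signal was 497.5 to 498.2 on the arrays. The submitters gave no version for MAS5 or affy, and the methods add GeneSpring and a filter on Absent calls. Such calls were not used here, and the percentile filter stands in for them. MAS5 subtracts mismatch signals, so low values scatter widely.

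The KO and WT arrays were compared by lmFit and eBayes with trend (limma 3.58.1, R 4.3.3), on all measured probe sets and on the brightest of each gene, with Benjamini-Hochberg adjustment over each table. The gene table gives 1 symbol to 34945 probe sets, several to 932 and none to 9160. The members, partner and marker lists and settings were chosen with earlier results of these data known. Named were all members and, of each partner list, up to 3 genes with the smallest p. Tested on simulated data of the KO and WT comparison over 27408 probe sets, the fit recovered 33 of 100 changes of 1 and 67 of 100 of 2 on the log2 scale, with 4 false calls. Recovery on the measured arrays themselves, with median SDs of 0.13 in WT and 0.31 in KO over all measured probe sets, was not tested. With 3 arrays per group, their number limits the precision, and p-values measure only the spread between samples. Alternatives were other scalings, filters, variance models and gene rules, an offset of 16 signal units before log2, the replicate number as a block, and leaving out each array.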

Additional observations from a re-analysis of the deposited data

How the results depend on the processing

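The count of 0 members past an adjusted p of 0.05 in limma was 0 again, for probe sets, subunit genes and partner genes, under quantile normalization, median centring, an offset before log2, all filters, a variance without trend and each left-out array. Without trend, and without WT replicate 1 or 2, 0 probe sets and 0 genes passed on the whole array, so these settings could not show otherwise. In all, 0 probe sets and 1 gene passed without WT replicate 3, and 2 and 0 without KO replicate 2, beside 6 and 8 in the main fit. The mean of the measured probe sets of a gene, which concerns genes alone, gave 0 subunit and partner genes as well. The default array weights did not converge, giving KO replicate 1 a weight of 96.0 and KO replicate 3 one of 0.0680, so their 7432 calls, 6 of them members, are not used. Weights estimated gene by gene, chosen after seeing the data, called 307 probe sets and 0 members (smallest adjusted p = 0.121). With a replicate block for the number in the labels, 0 members passed (smallest adjusted p = 0.849), where 2 probe sets and 4 genes did in all. The labels do not pair samples by number, and deviations of equally numbered arrays correlated at -0.04, 0.07 and 0.13.

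Members at a 1.5-fold difference numbered 2 without a filter, the second being the dim Grik3 probe set, against 22.8% of all probe sets. They numbered 0 to 4 with each array left out, 4 of 17 without KO replicate 1 (12.8% of all), 2 without KO replicate 2 (14.7%) and 0 without WT replicate 1 (8.05%) or KO replicate 3 (6.86%). Members without overlap numbered 1 to 7, namely 7 of 17 without KO replicate 1 (26.1% of all), 4 without WT replicate 3 (22.4%), 3 without KO replicate 3 (30.1%) and 2 without KO replicate 2 (32.5%). The change of Gria4 minus Gria2 was 0.26 with the mean of the probe sets and 0.033 with the second brightest, that of Gria3 minus Gria2 0.51 and that of Grik2 minus Grik5 -0.072 with the second brightest. With each array left out the changes ran from -0.31 to -0.10 for Gria1 minus Gria2, -0.11 to 0.34 for Gria3 minus Gria2, 0.38 to 0.57 for Gria4 minus Gria2, 0.11 to 0.62 for Grik2 minus Grik5 and 0.01 to 0.59 for Grik4 minus Grik5. The cause of these shifts was not tested.

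Signs turned for some of the tested differences, all of which were short of the threshold in the main fit. Median centring gave -0.017 for Gria3 1434728_at and -0.028 for Adar. Gene-by-gene weights gave 0.013 for Gria2 1453098_at, 0.19 for Gria4 1440891_at, 0.086 for Porcn, 0.11 for Neto1, 0.077 for Neto2, -0.24 for Adarb1 and -0.058 for Adar, and the mean of probe sets gave -0.15 for Adarb2. With each array left out, the difference ran from -0.31 to 0.17 for Gria1 1448972_at, -0.045 to 0.76 for Gria3 1420563_at, -0.16 to 0.26 for Gria3 1434728_at, -0.085 to 0.27 for Gria4 1421351_at and -0.19 to 0.26 for Gria4 1440891_at. It ran from -0.070 to 0.26 for Grik1 1439987_at, -0.21 to 0.057 for Grik2 1457683_at, -0.30 to 0.082 for Grik4, -0.12 to 0.10 for Adar, -0.31 to 0.33 for Adarb1, -0.41 to 0.18 for Neto1, -0.26 to 0.16 for Neto2 and -0.31 to 0.14 for Porcn.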
